A study of Mus musculus with 2 samples.

Results

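Heat shock proteins were followed through single-cell RNA libraries of mouse pancreatic tumours. The 10 genes were taken by symbol from the 32285 genes of the matrices: Hspa1a, Hspa1b, Dnajb1, Hsph1, Hsp90aa1 and Hspb1, which cells make in quantity after stress, Hspa8 and Hsp90ab1, which unstressed cells already hold, and Hspd1 and Hspe1. All 10 had UMIs (unique molecular identifiers, counted RNA molecules) in the kept cells of both libraries. The set goes by the name of cytosolic heat shock proteins, yet the products of Hspd1 and Hspe1 work in the mitochondrial matrix, so this pair was kept apart as mitochondrial.

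Heat shock proteins are chaperones: they bind unfolded protein, hold it in solution and refold it. On heat or other protein damage, heat shock factor 1 (Hsf1) binds heat shock elements, repeats of a short motif read alternately on both strands, and transcription of the inducible members follows. Constitutive members such as Hspa8 do the same work in unstressed cells. Dissociation of a tissue into single cells is a stress that is known to evoke this programme, together with immediate early genes such as Fos and Jun.

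EL1 was 1 library from FVB/N-EL1-Luc/EL1-TAg mice, which carry the SV40 large T antigen and firefly luciferase, each under the rodent elastase I promoter, so that the oncogene is driven in acinar cells. WTg was 1 library from the cross of that line with CAG-Mettl3 mice, in which a Mettl3 open reading frame cloned from C57BL/6J stands under the broadly active CAG promoter. The Mettl3 line was made in BL/6 eggs, so background and transgene vary as 1 and cannot be told apart. Both groups were labelled 6 weeks old and share the 2 elastase transgenes, no treatment is labelled, and the sources used here give neither the number nor the sex of the animals. The tumours were minced and digested with collagenase D and DNase before viability staining, and the cells went through droplet capture with 3′ chemistry. With 1 library a group there was no replicate and no test, and every interval below is a 95% interval of counting error alone.

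Barcodes with 500 genes or more, 1000 UMIs or more and no more than 20% mitochondrial UMIs were kept, which left 1113 of 1621 barcodes of EL1 with 37961287 UMIs and 905 of 1488 barcodes of WTg with 33007683 UMIs. Median depth was 26543 UMIs a cell in EL1 and 34836 in WTg. Mettl3, the gene of the transgene, stood at 15.1 CPM (13.9 to 16.4) for EL1 against 66.7 CPM (63.9 to 69.5) for WTg, where CPM is the gene's UMIs divided by all UMIs of the same cells and scaled to 1000000. The libraries shared 15 barcodes among all and 0 among kept cells, and Scrublet called 2 and 3 doublets, which were kept. The label names epithelial cells, but of 17 clusters some carried the markers of macrophages, lymphocytes or erythroid cells. Most clusters belonged to 1 library, so only the neuroendocrine-like, acinar-like and macrophage-like classes and clusters 4, 8 and 13 were compared between libraries.

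The inducible Hsp70 genes Hspa1a (chr17:34969190-34972156, minus strand, GRCm38) and Hspa1b (chr17:34956436-34959238, minus strand) lie 9951 bases apart. Their coding sequences were 99.4% identical, but the last 300 bases of the transcripts, which 3′ chemistry reads, only 45.2%. RefSeq windows (GRCm38.p6) of 250 bases before the start held 7 of the 10 members. Hspa8, Hsp90aa1 and Hsp90ab1 were not among them. The Hspa1a and Hspa1b windows matched at 247 of 250 bases and differed at 3, so that both paralogs are shown, beside Hspb1, the small heat shock protein with a pair of motifs. Capitals mark 2 units of a heat shock element (GAANNTTC or TTCNNGAA, where N is any base, each its own reverse complement and therefore the same on both strands).
Hspa1a, chr17:34972157-34972406, minus strand: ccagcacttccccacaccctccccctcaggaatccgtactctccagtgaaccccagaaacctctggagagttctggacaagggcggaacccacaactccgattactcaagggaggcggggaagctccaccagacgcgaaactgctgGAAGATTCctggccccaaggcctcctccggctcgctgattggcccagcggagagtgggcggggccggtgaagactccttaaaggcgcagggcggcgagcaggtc
Hspa1b, chr17:34959239-34959488, minus strand: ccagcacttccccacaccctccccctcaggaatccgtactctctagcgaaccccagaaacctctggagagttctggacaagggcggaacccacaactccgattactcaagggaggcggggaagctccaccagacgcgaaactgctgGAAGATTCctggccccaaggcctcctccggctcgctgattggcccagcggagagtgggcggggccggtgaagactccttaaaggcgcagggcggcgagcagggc
Hspb1, chr5:135887669-135887918, plus strand: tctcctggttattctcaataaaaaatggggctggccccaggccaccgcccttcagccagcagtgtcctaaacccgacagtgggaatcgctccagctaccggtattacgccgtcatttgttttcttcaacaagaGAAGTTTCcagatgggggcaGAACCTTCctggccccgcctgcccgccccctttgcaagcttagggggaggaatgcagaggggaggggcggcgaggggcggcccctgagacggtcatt
The motif of Hspa1a and Hspa1b began 104 bases before the start in both, and those of Hspb1 began 117 and 97 bases before it. A pair of short sites stands for the rest: the Hsph1 site, and a stretch in windows of both Hspe1 and Hspd1. The latter genes run head to head on opposite strands. In the annotation this stretch lies in exon of Hspd1, and most of the Hsph1 site in exon of Hsph1.
Hsph1, chr5:149636351-149636380, minus strand: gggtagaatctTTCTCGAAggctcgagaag
Hspe1, chr1:55088053-55088082, plus strand: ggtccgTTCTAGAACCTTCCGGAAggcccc
In the Hspe1 stretch 3 of the motifs of 2 units overlap in 1 run. The 7 members had 10 windows, and 6 members held a motif of 2 units in at least 1 of theirs. A further window of Hspd1 held none. Of 32536 different promoter windows of that length, each taken singly, 12.9% held one (GAANNTTC 6.72%, TTCNNGAA 7.19%). The 2 counts are not alike, since a member could have more than 1 window. The Hspa1a and Hspa1b windows are also near copies, and Hspd1 and Hspe1 share their stretch. Motifs of 3 units (GAANNTTCNNGAA or TTCNNGAANNTTC) were in the windows of 2 members, Hspd1 and Hspe1, and in 0.470% of all. The 2 windows of Dnajb1 held none of these motifs. A match describes the letters and is not a measured binding site.

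Over all kept cells the members stood close together in both libraries, and 0 of 10 differed by 2-fold or more, where 17.0% of the 16167 genes with at least 10 UMIs did. Among genes with at least 100 UMIs, nearer in depth to the members, it was 9.37% of 12296. The members made up 0.485% of all UMIs in EL1 and 0.442% in WTg. Inducible members gave 33.2% of the members' UMIs in EL1 (33.0 to 33.4%, 61133 of 184003) and 33.6% in WTg (33.4 to 33.9%, 49076 of 145851). Most of these inducible UMIs were of Hsp90aa1 (40113 in EL1, 30335 in WTg) and Hspb1 (13514 and 11979). Hspa1a and Hspa1b together gave only 2129 and 1900. The inducible share and sum thus mainly follow Hsp90aa1 and Hspb1, which most cells held. The median log2 ratio of WTg over EL1 was -0.13 over the 10 members and -0.14 over all genes. TMM scaling, which centres the typical gene, adds 0.13 to each ratio, so any member with a ratio between -0.13 and 0 reads as higher in WTg under it.

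Among the inducible members, Hspa1a and Hspa1b encode the stress-induced Hsp70 itself. Hspa1a stood at 29.9 CPM for EL1 against 31.2 CPM for WTg, with a log2 ratio of 0.06 (-0.06 to 0.19). Hspa1b stood at 26.2 and 26.4 CPM, with a log2 ratio of 0.01 (-0.12 to 0.14). The library totals of both paralogs were therefore within counting error, but the cells behind them were not the same kind, as described below: without cluster 13 the ratios were -0.88 for Hspa1a and -1.08 for Hspa1b, and without the 10 cells richest in Hspa1a and Hspa1b in each library Hspa1b was at -1.68, whereas Hspa1a was at 0.15 (-0.07 to 0.38). A single cell moved each total past counting error, in either direction. Without the EL1 cell richest in the paralog, Hspa1a was at 0.35 (0.22 to 0.48) and Hspa1b at 0.27 (0.13 to 0.41). Without the richest WTg cell Hspa1a was at -0.20 (-0.33 to -0.07) and Hspa1b at -0.40 (-0.54 to -0.25). With all deposited barcodes both paralogs were lower in WTg, Hspa1a at -0.23 (-0.35 to -0.11) and Hspa1b at -0.21 (-0.33 to -0.08).

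Dnajb1 encodes the J-domain co-chaperone that hands clients to Hsp70. Its level was 90.7 CPM for EL1 against 102.6 CPM for WTg (log2 ratio 0.18, 0.11 to 0.25), and the direction turned to -0.19 without those 10 cells and to -0.01 with each cell weighted equally. A single WTg cell of cluster 1 held 360 Dnajb1 UMIs, and without it the ratio was 0.02 (-0.05 to 0.09). Hsph1 encodes Hsp110, which swaps the nucleotide on Hsp70. Its level was 50.9 and 44.7 CPM (log2 ratio -0.19, -0.29 to -0.09). Hsp90aa1, the inducible cytosolic Hsp90, was at 1057 and 919 CPM (log2 ratio -0.20, -0.22 to -0.18). For Hspb1, a small heat shock protein that holds unfolded protein without ATP, the libraries gave 356 and 363 CPM (log2 ratio 0.03, -0.01 to 0.06). Thus of 6 inducible members, Hsph1 and Hsp90aa1 were lower in WTg beyond counting error, Dnajb1 was higher until that 1 cell was left out, and the other 3 had intervals that include 0. Under TMM scaling the tally was another: Hspa1a (0.20), Hspa1b (0.14) and Hspb1 (0.16) had intervals above 0, as did Dnajb1, and that of Hsph1 (-0.06, -0.15 to 0.04) included 0.

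The constitutive members were lower in WTg by small amounts. Hspa8, the Hsp70 of unstressed cells, was at 1553 CPM for EL1 against 1371 CPM for WTg (log2 ratio -0.18, -0.20 to -0.16). Hsp90ab1, the constitutive Hsp90, was at 1253 and 1189 CPM (log2 ratio -0.08, -0.10 to -0.06), and TMM scaling turned that to 0.06. The mitochondrial pair had like ratios. Hspd1, which encodes the barrel of the chaperonin, was at 215 and 185 CPM (log2 ratio -0.22, -0.26 to -0.17) and Hspe1, which encodes its lid, at 217 and 187 CPM (log2 ratio -0.21, -0.26 to -0.16). Named pseudogenes number 5 for Hspd1 and 6 for Hspe1 in the annotation, and the pair overlaps at its 5′ ends. Hspa1a overlaps Gm20481 on the opposite strand and 3 snoRNA genes lie within Hspa8, so reads counted there may be shared if strand was not used.

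**Figure D1:**
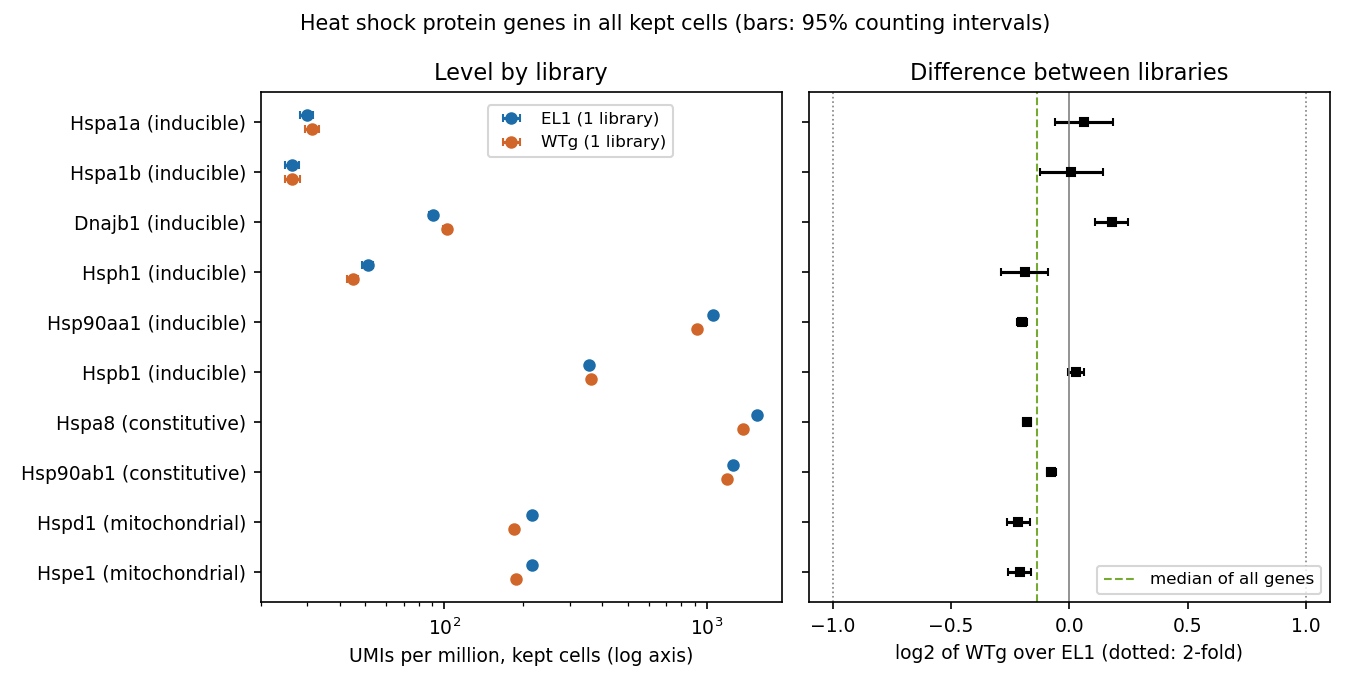
Levels of the 10 members in all kept cells in CPM on a log axis, by library (left), and the log2 ratio of WTg over EL1 (right), with 95% counting intervals as bars. No member reaches the dotted 2-fold lines, and the dashed line marks the median of all genes at -0.14. Under TMM scaling every ratio moves up by 0.13 and Hsp90ab1 turns to 0.06.

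The members differed more between cells than between libraries. Hspa1a had no UMI in 88.7% of EL1 cells and 91.7% of WTg cells, while the richest cell of EL1 held 207 of them and that of WTg 172. The 10 top cells held 71.0% of Hspa1a UMIs and 56.7% of Hspa1b UMIs in EL1, and 74.7% and 83.8% in WTg. Both paralogs were thus concentrated in a few cells of each library. For Dnajb1 the 10 top cells held 14.7% of UMIs in EL1 and 33.6% in WTg. For Hspa8 they held 5.42% and 8.15%, and only 2.70% of EL1 cells and 4.53% of WTg cells lacked it.

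**Figure D2:**
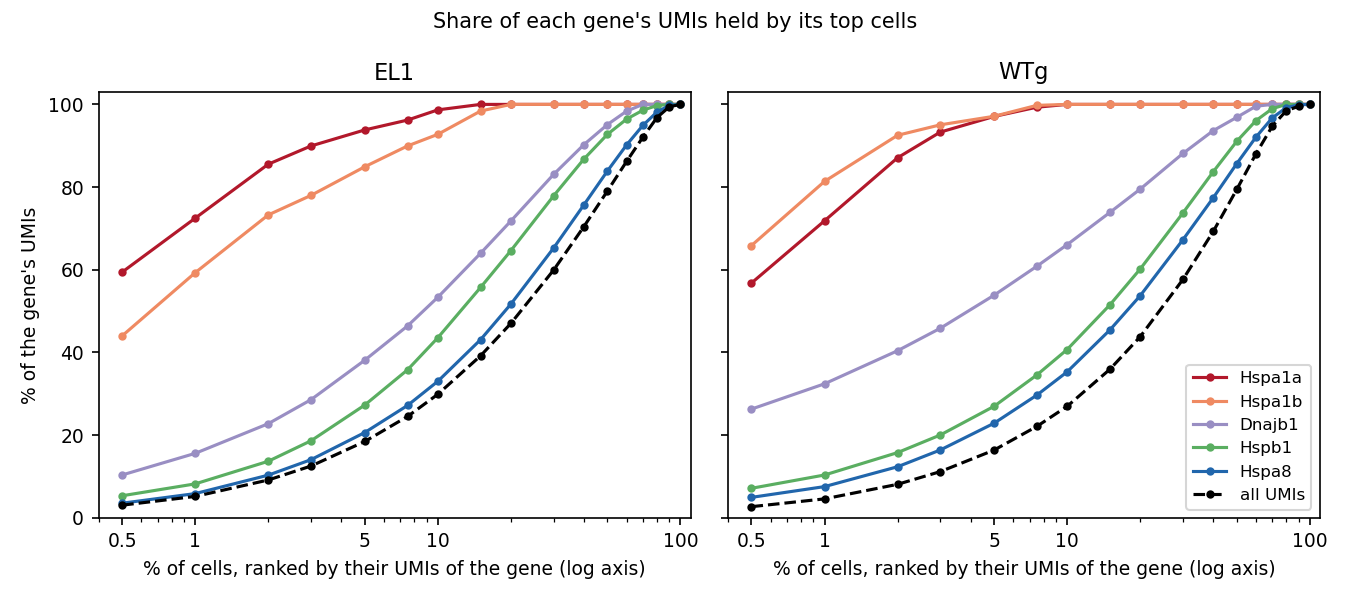
Share of each gene's UMIs (vertical axis, percent) held by the cells richest in that gene (horizontal axis, percent of cells on a log axis), by library, with the cells' total UMIs as the dashed line. Hspa1a and Hspa1b lie far above the other genes, Dnajb1 lies between, and Hspa8 follows the total UMIs most closely.

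Each cell was thinned to 2000 UMIs, which left out 62 cells of EL1 and 69 of WTg. Hspa8, Hspb1 and Hspa1a kept their order by share of cells with a UMI. Hspb1 passed Hspd1 and Hspe1, which had the higher shares unthinned in both libraries. Hspa8 was then seen in 89.2% of EL1 cells and 84.7% of WTg cells, against 97.3% and 95.5% unthinned. Hspb1 was seen in 41.4% and 40.2% (83.3% and 79.8% unthinned), and Hspa1a in 2.76% and 2.15% (11.3% and 8.29% unthinned). Cells with an Hspa1a UMI were thus a minority, thinned or not. In T, NK and B-like cells, which are blood cells, Hspb1 was seen in 0 of 10 cells of EL1 (median 6856 UMIs), which allows up to 30.8%, and in 0 of 20 of WTg (median 6336.5 UMIs), which allows up to 16.8%. Hspa1a was seen in 0 of the same 10 and 0 of the same 20 cells and so was not detectable there with this number of cells. Acinar markers, which macrophages should lack, stood at 2681 CPM in macrophage-like cells of EL1 and 1087 CPM in those of WTg, and the part of free RNA in the shares was not tested. All kept cells that were thinned had medians of 28320 and 36521 UMIs.

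Cells with at least 10 UMIs of Hspa1a and Hspa1b together, a limit chosen after the values were seen, numbered 30 in EL1 (2.70% of cells) and 24 in WTg (2.65%). They held 1715 of 2129 Hspa1a and Hspa1b UMIs in EL1 (80.6%) and 1749 of 1900 in WTg (92.1%). Near the limit, 14 cells of EL1 and 6 of WTg had 5 to 9 UMIs, and 11 and 8 had 10 to 19. The rich cells were deeper than the rest, with medians of 34405.5 against 26443 UMIs in EL1 and 41679 against 34725 in WTg, and 1 in each library was a called doublet. In the remaining cells Hspa1a and Hspa1b together stood at 11.2 CPM for EL1 against 4.74 CPM for WTg, with a log2 ratio of -1.25 (-1.52 to -0.97).

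The other members were higher in these cells too, but the share of all genes that were higher there was not computed. In WTg 9 of the 24 rich cells were of cluster 13, which had the highest Hspa8 and Hsp90ab1 levels of that library's clusters. Dnajb1 stood at 311 CPM in the rich cells against 83.8 CPM in the rest of EL1, and at 1002 against 69.8 CPM in WTg. Hsph1 stood at 199 against 46.3 CPM in EL1 and at 383 against 32.3 CPM in WTg. These co-chaperones of Hsp70 had the highest ratios in both libraries. The levels are pooled over the cells: a single WTg cell held 360 Dnajb1 UMIs and another held 112 Hsph1 UMIs. Hsp90aa1 was at 2891 against 999.6 CPM in EL1 and 2068 against 877 CPM in WTg. Hspb1 was at 753 against 344 CPM and 1035 against 338 CPM, and a single EL1 cell held 242 of its UMIs. Hspa8, although constitutive, was at 3002 against 1507 CPM and 3886 against 1280 CPM, so that in WTg its log2 ratio of 1.60 exceeded the 1.24 of Hsp90aa1. Hspd1 had the log2 ratios 0.49 in EL1 and 0.52 in WTg, and Hspe1 had 0.35 and 1.13. The 20 immediate early genes, summed, were higher with them: 21192 CPM in these cells against 7546 CPM in the rest of EL1, and 21468 against 6088 CPM in WTg, and their part in the result was not tested.

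**Figure D3:**
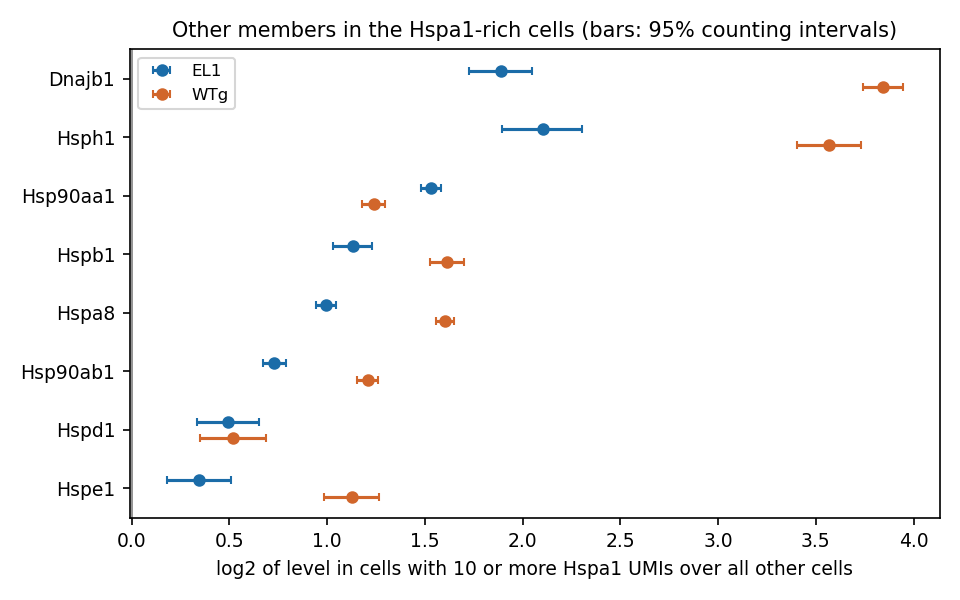
The log2 ratio of each other member's level in cells with at least 10 Hspa1a and Hspa1b UMIs (30 of EL1, 24 of WTg) over its level in all other cells of the library, with 95% counting intervals as bars. Every point lies above 0, Dnajb1 and Hsph1 of WTg reach 3.84 and 3.57, and Hspd1 has the lowest value in WTg and Hspe1 in EL1. Levels are pooled over cells, and a single WTg cell held 360 Dnajb1 UMIs and another 112 Hsph1 UMIs. The share of all genes above 0 was not computed.

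Within a cell the paralogs did not always go together. The deposited counts of 19 of the 30 EL1 cells and 19 of the 24 WTg cells had a mixture of both. Over 90% of the UMIs were Hspa1a in 5 cells of EL1 and 4 of WTg, and over 90% were Hspa1b in 6 and 1. Among cells with at most 1 UMI of the other paralog, the highest counts of EL1 were 207 Hspa1a UMIs beside 1 of Hspa1b, and 60 Hspa1b UMIs beside 0 of Hspa1a. Those of WTg were 26 Hspa1a UMIs beside 1 and 83 Hspa1b UMIs beside 1. Library totals hide this, since Hspa1a made up 53.3% of the paralogs' UMIs in EL1 and 54.2% in WTg. Across cells of at least 5000 UMIs the Pearson correlation of Hspa1a with Hspa1b was 0.65 in EL1 (975 cells) and 0.84 in WTg (748 cells). These points share a library and their depth.

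**Figure D4:**
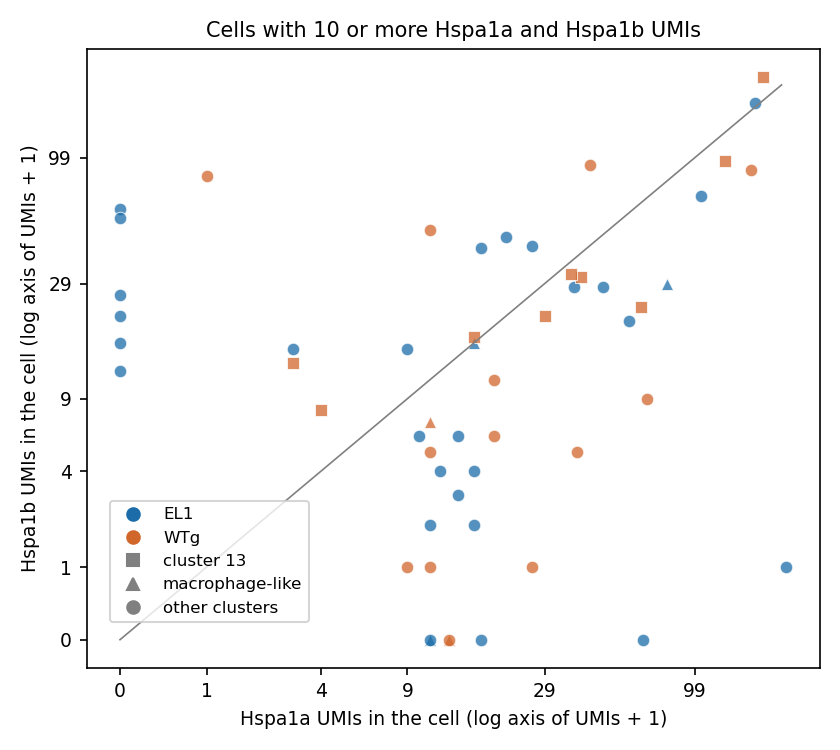
UMIs of Hspa1a (horizontal) and Hspa1b (vertical) in each cell with at least 10 of both together, on log axes of UMIs plus 1, coloured by library and shaped by cluster, with the line of equal counts. Cells along the left and lower edges carry almost only 1 paralog. The squares, the 9 WTg cells of cluster 13, all hold both paralogs, some at unequal counts (64 Hspa1a and 23 Hspa1b UMIs, 3 and 13).

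The libraries fill most clusters unequally, so the clusters of the rich cells are given with the cells that each library has there. In EL1 the rich cells were 12 of 253 in cluster 1 (neuroendocrine-like), 7 of 185 in cluster 3, 3 of 40 in cluster 10 (macrophage-like), 3 of 68 in cluster 12, 2 of 156 in cluster 5, 2 of 77 in cluster 11 and 1 of 146 in cluster 6. In WTg they were 9 of 15 in cluster 13, 7 of 285 in cluster 0, 2 of 179 in cluster 2, 2 of 90 in cluster 9, 2 of 47 in cluster 10, 1 of 8 in cluster 1 and 1 of 97 in cluster 4. Cluster 13 had 0 of 39 in EL1. Cluster 13 gave 49.7% of the Hspa1a and Hspa1b UMIs of WTg from 1.78% of its UMIs, and 0.517% of those of EL1 from 3.30% of its UMIs.

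Cluster 13 is left unnamed: over both libraries together it carried 6 endothelial markers, but 0 of them were among its 10 leading genes. It counts 39 cells of EL1 and 15 of WTg. Over both libraries together its leading genes (Igfbp7, Mgp, Sparc, Fabp4) are those of stroma and vessels. Hspa1a stood at 3.19 CPM for EL1 (4 UMIs) against 833 CPM for WTg (489 UMIs), with a log2 ratio of 8.03 (6.66 to 9.91). Hspa1b stood at 5.59 CPM (7 UMIs) and 776 CPM (456 UMIs), a ratio of 7.12 (6.06 to 8.44). The richest WTg cell held 214 of the latter, and without it the ratio was 6.28 (5.22 to 7.61), and 8.28 without the EL1 cell that held 4. Dnajb1 was at 69.5 and 249 CPM, a ratio of 1.84 (1.45 to 2.24), and Hsph1 at 56.7 and 136 CPM, a ratio of 1.27 (0.79 to 1.75). These 4 inducible members were the ones past 2-fold, where 38.9% of the 9716 genes measured in the cluster were. Hspa8 was at 2021 and 3409 CPM (0.75, 0.67 to 0.84) and Hsp90ab1 at 2369 and 2539 CPM (0.10, 0.01 to 0.19, but 0.04, -0.06 to 0.14, without its richest WTg cell), while Hsp90aa1 was lower in WTg at 1197 and 964 CPM (-0.31, -0.46 to -0.17). Hspd1 was lower too, at 212 and 152 CPM (-0.48, -0.84 to -0.13). Markers differed between the libraries there: the 7 endothelial markers summed to 17.6 CPM for EL1 against 3630 CPM for WTg, the 7 fibroblast markers to 762 and 1817 CPM, and the immediate early genes to 9213 and 10834 CPM. The acinar markers summed to 58632 CPM for EL1 and 28663 CPM for WTg. The part of all these genes was not tested. Split after the values were seen, the 7 WTg cells with a UMI of the endothelial cadherin Cdh5 held 916 Hspa1a and Hspa1b UMIs, or 2734 CPM, and all 7 were rich cells. The 8 WTg cells without Cdh5 held 29, and the 38 EL1 cells without it held 11. The single EL1 cell with Cdh5 had 0 among 1034 UMIs, where 3 counts would be 2901 CPM.

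The neuroendocrine-like class held 269 cells of EL1, of which 253 were in cluster 1, and 187 of WTg, of which 179 were in cluster 2, so that the libraries fill it from different clusters. Its cells carried acinar RNA as well. The acinar markers summed to 70911 CPM for EL1 and 86779 CPM for WTg, and the neuroendocrine markers to 10484 and 7247 CPM. Hspa1a stood at 66.4 CPM for EL1 against 21.0 CPM for WTg, with a log2 ratio of -1.66 (-1.93 to -1.40). Hspa1b stood at 38.4 and 15.5 CPM, a ratio of -1.31 (-1.63 to -0.996). These were the 2 members past 2-fold, where 13.1% of 13319 genes were. Few cells carried them: 12 rich cells of EL1 held 793 of 868 UMIs of both paralogs and 3 of WTg held 223 of 266, and in the remaining cells the sum was 9.64 CPM for EL1 against 5.98 CPM for WTg (-0.69, -1.26 to -0.13). Without the 10 richest cells of each library Hspa1a was at -1.04 and Hspa1b at -3.74, and with finer clustering (Leiden resolution 2) Hspa1b was at -0.19 and with the heat shock genes kept in clustering at -0.71. With equal weight for each cell Hspa1a was at -2.50 and Hspa1b at -1.86. Single cells moved the sizes: without the EL1 cell of 207 Hspa1a UMIs Hspa1a was at -0.99, without the WTg cell of 67 at -2.49, and without the WTg cell of 92 Hspa1b UMIs Hspa1b was at -3.73. The immediate early genes were also higher in EL1 there, at 9795 against 6774 CPM, and their part was not tested.

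The other members of that class were nearer between the libraries, except where 1 cell carried the level. Hsp90aa1 was at 1298 and 1094 CPM (-0.25, -0.29 to -0.20), Hspb1 at 435 and 385 CPM (-0.18, -0.25 to -0.10), Dnajb1 at 128 and 114 CPM (-0.16, -0.30 to -0.03) and Hsph1 at 69.2 and 62.5 CPM (-0.15, -0.33 to 0.03). Hspa8 was at 1741 and 1590 CPM (-0.13, -0.17 to -0.10), and Hsp90ab1 at 1437 and 1432 CPM (-0.01, -0.04 to 0.03). The Dnajb1 level of WTg rested on the 1 cell with 360 UMIs: without it WTg was at 65.1 CPM and the ratio -0.97 (-1.13 to -0.81). Without the EL1 cell richest in Dnajb1 it was instead -0.03 (-0.16 to 0.11). The 6 inducible members were all lower in WTg with these clusters, though Hsph1 not beyond counting error, and TMM scaling adds 0.08 to each ratio. The direction depended on how the class was drawn. At Leiden resolution 2 the inducible sum was at 0.06 (0.01 to 0.11) in place of -0.27, Dnajb1 at 0.84, Hspb1 at 0.12, Hsp90aa1 at 0.01 and Hspa8 at 0.18, and with the heat shock genes kept in clustering Dnajb1 was at 0.13 and Hspb1 at 0.10. Hspd1 was higher in WTg, at 209 CPM for EL1 against 246 CPM for WTg (0.24, 0.14 to 0.33), whereas its partner Hspe1 was at 240 and 234 CPM (-0.03, -0.13 to 0.06).

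Macrophage-like cells (cluster 10, 40 of EL1 and 47 of WTg) carried all 9 macrophage markers, with median depths of 6881.5 and 18381 UMIs. At Leiden resolution 2 the macrophage cluster held 28 and 40 cells, and a cluster with 6 neutrophil markers held 12 and 7. Ratios were not computed for those clusters, and the following are for cluster 10. In them Hspa1a stood at 215 CPM for EL1 against 41.5 CPM for WTg, with a log2 ratio of -2.37 (-2.92 to -1.84), and Hspa1b at 94.1 and 11.1 CPM, a ratio of -3.08 (-4.17 to -2.12). Without the EL1 cell richest in each paralog (79 Hspa1a UMIs, 29 Hspa1b UMIs) the ratios were -0.73 (-1.42 to -0.04) and -1.89 (-3.09 to -0.77), and without the WTg cell with 7 Hspa1b UMIs Hspa1b was at -4.48. The paralogs were again the 2 members past 2-fold, where 16.3% of 8477 genes were. Here 3 EL1 cells held 151 of 164 UMIs and 2 WTg cells 31 of 52. In the remaining cells the sum was 27.9 CPM (13 UMIs) and 23.2 CPM (21 UMIs), a ratio of -0.27 (-1.33 to 0.85), so that the difference rested on 5 cells. Hspa8 was at 2195 and 1423 CPM (-0.63, -0.74 to -0.51) and Hsp90aa1 at 510 and 417 CPM (-0.29, -0.52 to -0.07), while Hsp90ab1 was at 1190 and 1352 CPM (0.18, 0.05 to 0.32). Without its richest EL1 cell Hsp90aa1 was at -0.12 (-0.35 to 0.13), and without its richest WTg cell Hsp90ab1 was at 0.12 (-0.02 to 0.26). Neutrophil markers were at 5434 CPM in the EL1 cells and 1424 CPM in the WTg cells, the immediate early genes at 5761 and 4208 CPM, and their part was not tested.

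Acinar-like cells held 33 cells of EL1, nearly all of the shallow cluster 8, and 160 of WTg, from clusters 7 and 8. Hspa1a had 0 UMIs in EL1 and 4 in WTg, and Hspa1b had 1 and 7, both too few for a ratio. Dnajb1 was at 116 and 75.1 CPM (-0.63, -1.14 to -0.08), but without the 1 EL1 cell that held 21 of its UMIs at 0.43 (-0.33 to 1.32), and Hsp90ab1 at 705 and 884 CPM (0.33, 0.13 to 0.53). Of 8 members with enough UMIs, 1 was past 2-fold, Hsph1 with 1 UMI in EL1 and 78 in WTg (2.50, -0.02 to 7.82), where 36.1% of 10405 genes were. Within cluster 8 alone, 32 cells of EL1 and 61 of WTg, Hsph1 had 1 UMI in each library. There Dnajb1 was at 132 and 24.4 CPM (-2.43, -3.62 to -1.38), and at -1.35 (-2.70 to -0.04) without that cell. Hsp90ab1 was at 682 and 517 CPM (-0.40, -0.69 to -0.10, and -0.26, -0.58 to 0.07, without the richest cell of each library). The median of all genes was -0.50 in cluster 8 and -0.05 in the class, so Hsp90ab1 lay above it in both.

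Within a library, Hspb1 differed most of the members between macrophage-like and neuroendocrine-like cells, while the number of members past 2-fold was near the share of all genes. In EL1 macrophage-like cells Hspb1 was at 9.41 CPM (5 UMIs) against 435 CPM in neuroendocrine-like cells, with a log2 ratio of -5.53 (-7.15 to -4.31). In WTg it was at 6.07 CPM (6 UMIs) against 385 CPM, a ratio of -5.99 (-7.44 to -4.86). Hsp90aa1 (-1.35 and -1.39), Hsph1 (-1.62 and -1.63) and Dnajb1 (-1.08 and -1.57) were also lower in macrophage-like cells of both libraries by over 2-fold. Hspa8 (0.33 and -0.16), Hsp90ab1 (-0.27 and -0.08) and Hspe1 (-0.15 and 0.02) were not. In EL1, 6 members were past 2-fold, the 4 lower ones and Hspa1a and Hspa1b, which were higher at 1.69 and 1.29, where 50.0% of 12894 genes were. In WTg the 4 lower ones were, where 49.7% of 12854 genes were, and Hspa1a was at 0.98 (0.45 to 1.49) and Hspa1b at -0.48 (-1.52 to 0.42).

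**Figure D5:**
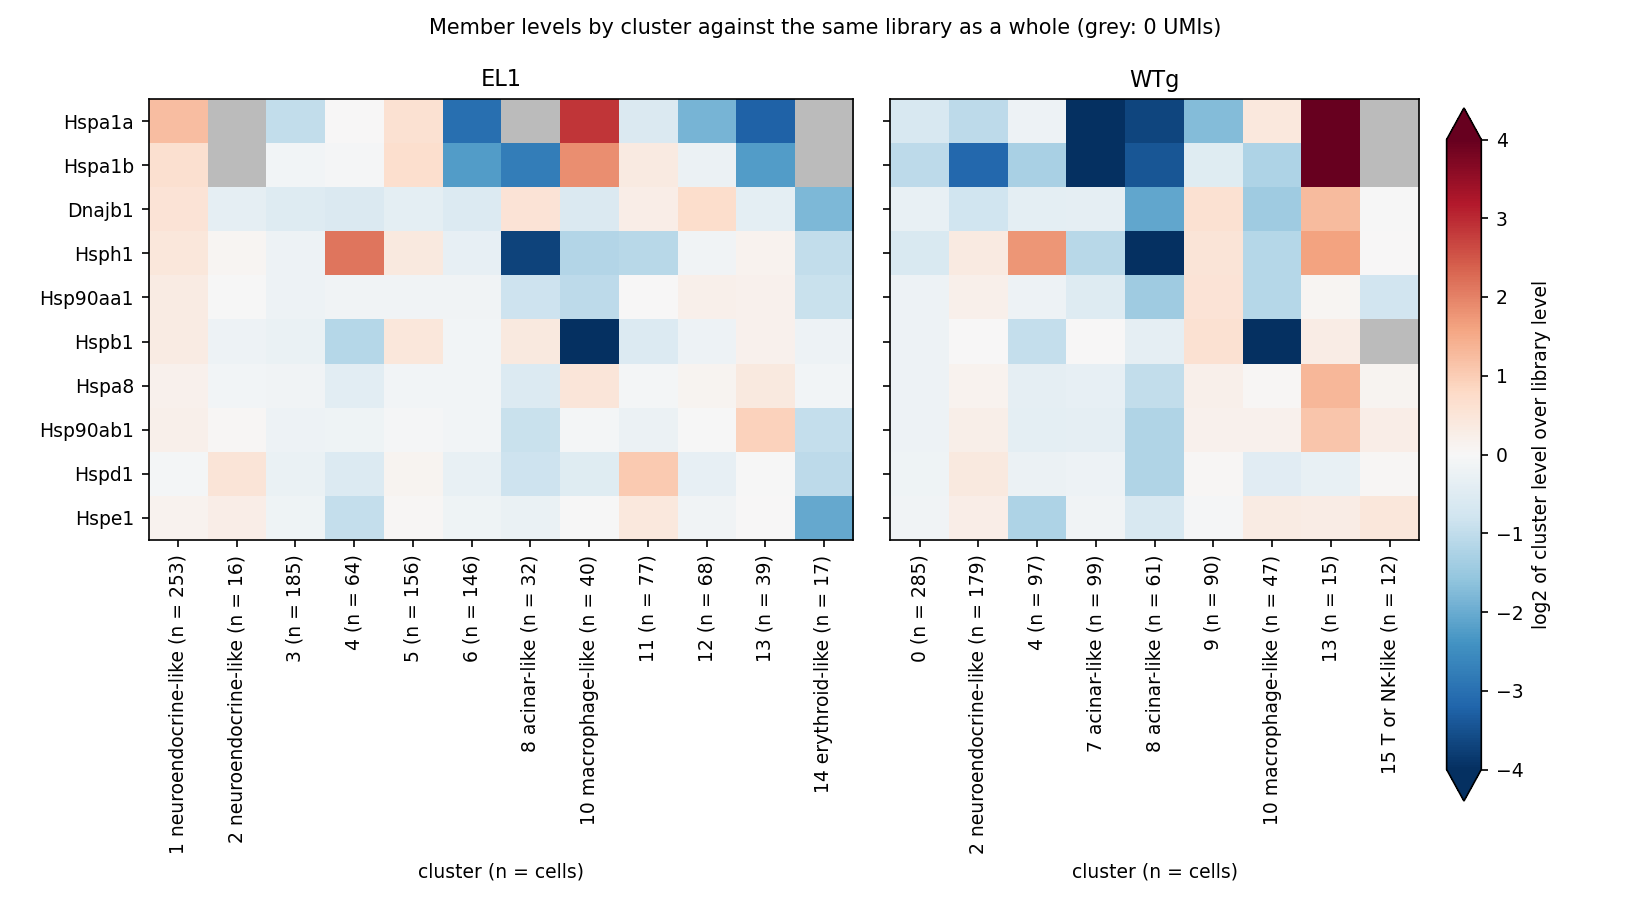
Log2 of each member's level in a cluster over its level in the same library as a whole, for clusters with at least 10 cells in that library. Grey squares had 0 UMIs, and colours end at -4 and 4. Hspa1a and Hspa1b are highest in cluster 10 of EL1 and cluster 13 of WTg. Hspb1 is lowest in the macrophage-like cluster 10 of EL1 and at 0 UMIs in cluster 15 of WTg. Hsph1 is high in cluster 4 of both, and in WTg 49 of its 84 UMIs there lay in 1 cell. For EL1 the spread over cells was not computed.

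Across the clusters with at least 10 cells, 12 of EL1 and 9 of WTg, the order of levels was as follows. Hspa8 had the smallest range in EL1, from 2195 CPM in macrophage-like cluster 10 to 1066 CPM in acinar-like cluster 8, or 2.06-fold, and in WTg it ran from 3409 CPM in cluster 13 to 700.2 CPM in cluster 8, or 4.87-fold. Of the steps between neighbours in this order, 3 of 11 in EL1 and 5 of 8 in WTg had intervals that did not overlap. Hsp90ab1 was highest in cluster 13 of both libraries, at 2369 and 2539 CPM, and the next clusters (1 in EL1 at 1447 CPM, 15 in WTg at 1438 CPM) did not overlap it. Hsp90aa1 was highest in cluster 1 of EL1, at 1315 CPM, and in cluster 9 of WTg, at 1335 CPM, a cluster led by histone and mitosis genes, and lowest in cluster 10 of EL1 (510 CPM) and cluster 8 of WTg (344 CPM).

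Hspb1 ran from 488 CPM in cluster 5 to 9.41 CPM in cluster 10 of EL1, or 51.8-fold, and from 550 CPM in cluster 9 of WTg to 0 UMIs in T or NK-like cluster 15, so that it was at least 16.3-fold higher there against a floor of 3 counts. Hsph1 was highest in cluster 4 of both libraries, at 223 CPM (162 to 299.6) and 151 CPM (120 to 187). In WTg 1 cell held 49 of the 84 Hsph1 UMIs of the cluster, and the order without that cell was not computed. In EL1 the cluster had 44 Hsph1 UMIs, and their spread over its cells was not computed. Cluster 4 is shallow, with medians of 1794 and 2670 UMIs, and led by Malat1, Kcnq1ot1 and other RNAs that stay in the nucleus. Dnajb1 was highest in cluster 12 of EL1 (147 CPM), a cluster led by histone genes, which its neighbour cluster 8 at 132 CPM overlapped, and in cluster 13 of WTg (249 CPM). Hspd1 was highest in cluster 11 of EL1 at 443 CPM, a cluster of that library alone led by Atp4b and Klk1, and Hspe1 was highest in the same cluster at 292 CPM, though 0 of its 11 steps were free of overlap.

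The makeup of the Hsp90 pair differed between cell groups. Hsp90aa1 was 45.8% of the pair's UMIs in EL1 (45.4 to 46.1%) and 43.6% in WTg (43.2 to 44.0%). In neuroendocrine-like cells it was 47.5% and 43.3%, in macrophage-like cells 30.01% and 23.6%, and in cluster 13 33.6% and 27.5%. In acinar-like cells it was 44.9% (39.9 to 50.1%) and 41.0% (39.7 to 42.2%), in cluster 4 45.8% and 46.9%, and in T, NK and B-like cells 20.6% (13.4 to 29.5%) and 25.8% (20.3 to 31.9%). The share was lower in WTg beyond overlap of the intervals in neuroendocrine-like and macrophage-like cells and cluster 13, whereas in the other 3 groups the intervals overlapped. Hspd1 held 49.8% of the UMIs of the mitochondrial pair in EL1 and 49.7% in WTg.

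Around the members, the 65 heat shock factors, chaperones and co-chaperones of the other lists lay on both sides of the all-gene median. Of the 62 with at least 10 UMIs, 1 was past 2-fold higher in WTg (Hspb2, 8 and 15 UMIs) and 1 lower (Hspa12b, 12 and 1 UMIs), and 26 lay above that median, with a median log2 ratio of -0.17. Hsf1, the factor that drives the inducible members, was at 20.3 CPM for EL1 against 18.1 CPM for WTg (-0.16), and Hsf2 at -0.43 on the same scale. Hsbp1, which binds Hsf1 and restrains it, was at 82.6 and 129.8 CPM (0.65). The highest and lowest of the other lists were Hspa4l (0.35) and Hspa12a (-0.80) of the Hsp70 family, Hsp90b1 (-0.02) and Trap1 (-0.25) of the Hsp90 family, Cryab (0.16) and Hspb8 (-0.89) of the small proteins, Dnajb5 (0.33) and Dnaja3 (-0.74) of the J proteins, St13 (0.82) and Ahsa1 (-0.52) of the co-chaperones, and Cct4 (0.04) and Cct6a (-0.37) of the cytosolic chaperonin. Of 20 immediate early genes, Nr4a1 was past 2-fold higher in WTg (1.42) and Egr3 lower (-1.15).

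The genes most like the inducible members from cell to cell included a J protein and immediate early factors. Of 10138 genes outside the members, Dnaja1 had the highest Pearson correlation with the summed inducible members over cells of at least 5000 UMIs, 0.45 in EL1 (975 cells) and 0.58 in WTg (748 cells). Among the next highest were Fosb with 0.35 and 0.34, Jund with 0.32 and 0.44, and Jun with 0.31 and 0.48. These points share a library, and the inducible sum itself had a correlation of 0.06 and 0.17 with log UMIs.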

How the data were processed

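Single-cell RNA was measured in 2 libraries, 1 of EL1 and 1 of WTg tumours, both at 6 weeks. For each gene and barcode the authors deposited a UMI count from Cell Ranger (6.0.2 in the matrix header). The submitters' processing notes name GRCm38, R 4.1 and Seurat 4.0.5. Whether intronic reads were counted is not given in the sources used here. A deposited dense table of counts, with 1471 and 1346 barcodes, held the same member values (14710 of 14710 and 13460 of 13460 equal) and served as an alternative.

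The members and the gene lists were chosen with earlier results of these data known. Barcodes were kept with at least 500 genes, 1000 UMIs and at most 20% mitochondrial UMIs, which removed 393 and 440 barcodes over that mitochondrial share and 115 and 143 others. Kept cells were scaled to 10000 counts and clustered (scanpy 1.11.5, leidenalg 0.10.2, 2000 variable genes, 30 components, 15 neighbours, resolution 1) without correction between libraries. Left out of clustering were the 95 genes of the heat shock and immediate early lists, cell cycle genes of the S and G2/M phases, Mettl3 and Plk1. A name needed at least 3 markers of its class, more than of any other class. It also needed a marker of that class among the cluster's 10 leading genes, and no other class with more there. Doublets (expected rate 2%) were kept.

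Levels (CPM) are a gene's summed UMIs over all UMIs of those cells, with Poisson intervals (exact), exact conditional binomial intervals for ratios and Clopper-Pearson intervals for shares, at 95% (scipy 1.17.1). They cover counting error only, and the spread between animals is unknown. Where a library had 0 UMIs the floor was 3 counts, or 0.0790 CPM in EL1 and 0.0909 CPM in WTg over all kept cells. The background is the share, among genes of 10 UMIs or more in both libraries together, of those with a log2 ratio of 1 or more in size. No test was run. Ratios and intervals were tested on simulated Poisson counts, which the intervals assume, so this says nothing about the spread between cells or animals. All members were named, and of each other list Hsf1, Hsf2 and the highest and lowest gene of at least 200 UMIs, plus the 5 genes most like the inducible sum among those seen in at least 10% of cells, of which 1 is not reported here. Hspb2 and Hspa12b were named after their values were seen. Promoters came from RefSeq (GRCm38.p6), positions from GENCODE. TMM scaling used edgeR 4.0.16 in R 4.3.3.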

Additional observations from a re-analysis of the deposited data

Results flagged for a closer look

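For 5 members the log2 ratio of WTg over EL1 had opposite directions in 2 cell groups, with counting intervals on either side of 0. The difference between the groups was not tested, since each library stands alone. Hspa1a was at 8.03 in cluster 13 and -2.37 in macrophage-like cells. Hspa1b was at 7.12 and -3.08 in the same groups. The cells of cluster 13 differed between the libraries in endothelial markers too, at 17.6 CPM for EL1 against 3630 CPM for WTg. Dnajb1 was at 1.84 in cluster 13 and -0.63 in acinar-like cells. The latter was 0.43 without 1 EL1 cell that held 21 UMIs. Hspa8 was at 0.75 in cluster 13 and -0.63 in macrophage-like cells. Hspd1 was at 0.24 in neuroendocrine-like cells and -0.48 in cluster 13.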

How the results depend on the processing

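Values are log2 ratios of WTg over EL1, and an alternative counted as a move where it left the counting interval of the reported value. The cause of the moves was not tested. Over all kept cells the inducible sum was -0.12 as reported, -0.15 with all deposited barcodes, 0.018 under TMM scaling and -0.25 with equal weight for each cell. The constitutive sum was -0.13 as reported and -0.16, 0.00106 and -0.22 under these settings. The mitochondrial sum was -0.21 and -0.080 under TMM. Of 60 alternatives for single members over all cells, 52 kept the sign and 0 passed 2-fold. The other 8 were Dnajb1 (0.18) at -0.00998, Hspa1a (0.06) at -0.51, Hspa1b (0.01) at -0.27 and Hspb1 (0.03) at -0.14 with equal weights, these last 3 at -0.23, -0.21 and -0.00217 with all deposited barcodes, and Hsp90ab1 (-0.08) at 0.057 under TMM. In the neuroendocrine-like class the inducible sum (-0.27) was 0.057 at Leiden resolution 2, where the class held 172 and 57 cells, -0.090 with the heat shock and immediate early genes kept in clustering, -0.18 under TMM and -0.32 with equal weights. The constitutive sum (-0.07) was 0.17, 0.028, 0.011 and -0.11 under these 4 settings. Of members of the class whose reported interval lay on 1 side of 0, those that turned were Dnajb1 (-0.16) at 0.84, Hspb1 (-0.18) at 0.12, Hspa8 (-0.13) at 0.18 and Hsp90aa1 (-0.25) at 0.00554 at resolution 2, and Dnajb1 at 0.13 and Hspb1 at 0.0997 with the heat shock genes kept. The inducible share of EL1 (33.2%) was 34.0% with equal weights. Genes past 2-fold numbered 2752 of 16167 and, with at least 100 UMIs, 1152 of 12296.

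Leaving out the 10 cells of each library richest in Hspa1a and Hspa1b, or cluster 13, or the richest cell of a member, and the alternatives for single members of the class, were chosen after seeing the data. Without those 10 cells the inducible sum was -0.18, the constitutive sum -0.17, Dnajb1 -0.19, the constitutive sum of the neuroendocrine-like class -0.10 and the inducible share 32.5% in both libraries. Without cluster 13 the inducible sum was -0.15 and the share of EL1 33.5%. No paired analysis was possible because there was 1 library a group. Depth limits Hspa1a and Hspa1b outside the rich cells, where single UMIs decide a cluster's level, and the lymphocytes, of which 10 and 20 were kept.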

Other observations

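Barcodes removed for more than 20% mitochondrial UMIs held members too. In the 393 such barcodes of EL1, Hspa1a stood at 254 CPM (225 to 286) against 29.9 CPM in kept cells, and Hspa1b at 165 CPM (142 to 191) against 26.2 CPM. Of their 272 Hspa1a UMIs, 270 lay in 10 barcodes. In the 440 such barcodes of WTg, Hspa1a was at 22.1 CPM (15.6 to 30.5) and Hspa1b at 20.9 CPM (14.6 to 29.1), with 37 and 35 UMIs. Hspa8 was lower than in kept cells in both, at 523 CPM for EL1 against 436 CPM for WTg, and so was Hspb1, at 113 and 79.0 CPM. Hsph1 was at 64.4 and 44.9 CPM, with intervals of its ratio to kept cells that include 0.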
